A study of Homo sapiens with 6 samples.

Results

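The proteasome is the cell's main machine for destroying proteins tagged with ubiquitin. Its barrel-shaped core is built of α rings, which gate the entrance, and β rings, which hold the cutting sites. A regulatory cap recognises ubiquitin, removes it and unfolds the substrate. The genes described here were the protein-coding rows of the deposited tables whose symbols name proteasome subunits, their assembly chaperones, activators and inhibitor. The symbol rule found 53 genes of 46427. Of these, 51 are proteasome genes, and PSMC3IP and PSME3IP1 carry the name of a subunit that their products bind.

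The RNA came from K562 cells. HR-19011, a compound that carries only a code name, was given at 10 µM for 24 h in 3 libraries, and 0.1% DMSO for 24 h served as vehicle in the other 3. K562 is an established human erythroleukemia line, labelled wild type in both groups. The labels give neither the DMSO content of the HR-19011 cultures nor the origin of each library, so p-values cover only library-to-library spread, possibly technical. The series title names HRI, eIF2α and ATF4, a stress pathway that slows protein synthesis, as the route by which HR-19011 acts.

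Levels are FPKM, fragment numbers scaled to transcript length and to the mapped total, so genes can be compared per length. The depth behind them is unknown. Summed FPKM ran between 420661 and 427819 in HR-19011 libraries, against 456639 to 467595 in vehicle libraries. Of 8 erythroid markers, all 8 stood at 1 FPKM or more in every library, with a summed level between 4268 and 4492 FPKM in HR-19011 and between 9821 and 10013 FPKM in vehicle. The summed markers of B cells, monocytes, fibroblasts and hepatocytes reached at most 1.23 FPKM in HR-19011 libraries and 0.516 in vehicle libraries, with MS4A1, LUM and TTR listed at 0 throughout. Of 4 T cell markers, summing to between 11.9 and 12.5 FPKM in HR-19011 and between 6.33 and 9.27 FPKM in vehicle, CD3D alone passed 1 FPKM, and CD8A was listed at 0 in every vehicle library. The globin genes made up most of the erythroid sum, and the levels of the erythroid marker TAL1 overlapped between the groups. The part of the lower erythroid sum in the proteasome results was not tested, and in bulk RNA fewer cells of a type cannot be told apart from less RNA per cell.

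Proteasome transcripts were lower after HR-19011. Of all FPKM in a library, the 53 genes held 0.742% ± 0.00666 in HR-19011 and 0.964% ± 0.00564 in vehicle (SD, n = 3). Each of the 33 constitutive subunits of core and cap fell, by a median of 1.44-fold and a range of 1.06-fold to 2.14-fold in mean FPKM. Their groups of libraries did not overlap, which also held for 85.2% of all tested genes. All 33 were also called lower after trimmed-mean (TMM) scaling of the libraries, 30 as TPM, where every library has the same total, and 30 after quantile normalization, where SEM1 was called higher. Of all tested genes, 38.0% were called lower as deposited, 50.5% after TMM scaling, 32.1% as TPM and 45.0% after quantile normalization. Against the fall of the core and cap subunits, gankyrin (PSMD10) and the activator subunit PSME1 rose. The steepest drop of any member was that of PSME3, the nuclear activator, at 2.45-fold.

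Across the 11856 genes averaging 1 FPKM or more, limma's moderated test on log2(FPKM + 1) called 84.4% at a Benjamini-Hochberg adjusted p under 0.05, 38.0% lower and 46.4% higher. PSMA8, PSMB8, PSMB9 and PSMB11 averaged less and were not tested. Of the 49 members tested, each of which stood above 1 FPKM in every library, 41 (83.7%) were called lower and 2 higher. The members were thus called about as often (87.8%) as genes in general (84.4%), but mostly downward. Their median log2 fold change was -0.49, beside 0.07 over all tested genes. Changes of at least 2-fold on this scale were few, at 4 members (PSME3, PSMD1, PSMG3 and PSMB2), or 8.16%, beside 18.5% of all tested genes. The groups did not overlap for 46 members (93.9%), beside 85.2% of all tested genes.

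How far the members fell depended on how libraries were scaled. TMM scaling moved the median of all genes by -0.21, conversion to TPM by 0.12 and quantile normalization by -0.13. After TMM scaling, 47 members were called lower and 2 higher, beside 50.5% and 34.6% of all genes (85.0% either way). As TPM, 37 were lower and 2 higher, beside 32.1% and 52.9% (85.0% either way). After quantile normalization, 39 were lower and 3 higher, beside 45.0% and 38.8% (83.8% either way). Measured from the median of all genes, the members' median was -0.56 as deposited, -0.59 after TMM scaling, -0.56 as TPM and -0.28 after quantile normalization.

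**Figure D1:**
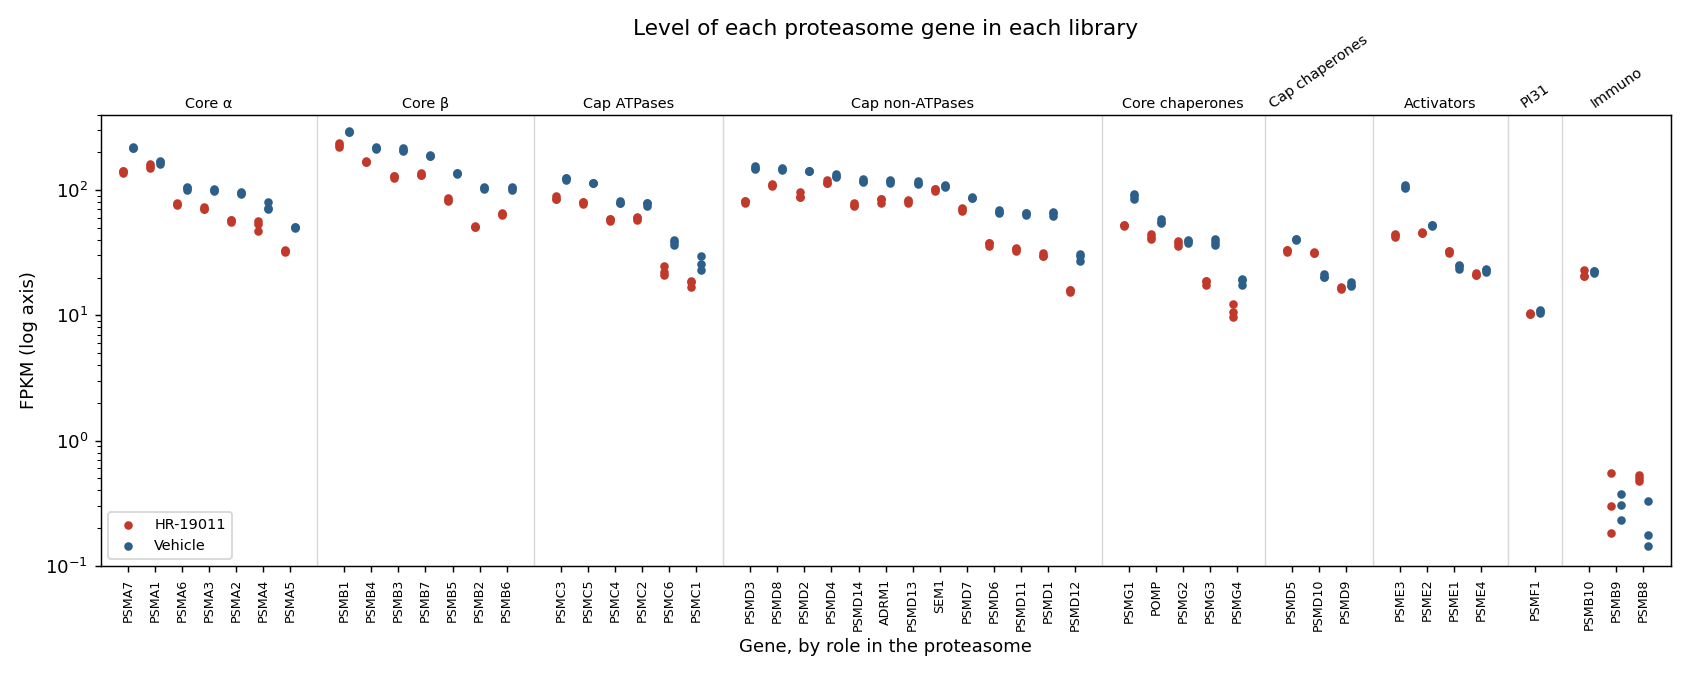
FPKM on a log axis for each proteasome gene in each library, ordered within roles by vehicle level, with 3 HR-19011 points (red) left of 3 vehicle points (blue). PSMA8, listed at 0 throughout, PSMB11 and the genes that match by symbol only are left out. The red points lie below the blue ones for the 33 core and cap subunits, and PSMB8 and PSMB9 lie below 1 FPKM.

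The α rings fell as a set. All 7 tested α genes, PSMA1 to PSMA7, were called lower, with log2 fold changes between -0.73 and -0.09, and their summed level was 587 ± 15.8 FPKM in HR-19011 and 805 ± 12.3 FPKM in vehicle (SD, n = 3). PSMA8, an α subunit of germ cells, was listed at 0 in all 6 libraries. PSMA2 fell most: it stood at 57.5, 57.4 and 55.4 FPKM in HR-19011 libraries, against 95.0, 92.6 and 97.0 FPKM in vehicle libraries. Its groups were well apart, with a log2 fold change of -0.73 (SE 0.0294, limma adjusted p = 2.61e-08).

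PSMA1 moved least, at 162, 157 and 150 FPKM in HR-19011, against 169, 163 and 167 FPKM in vehicle. The groups nearly touch, and the log2 fold change of -0.091 (SE 0.0331, limma adjusted p = 0.0297) turned positive as TPM and after quantile normalization. Its call was also lost without the filter on low values (adjusted p = 0.0712), without the variance trend (adjusted p = 0.0721), without HR-19011 replicate 2 (adjusted p = 0.0541) or replicate 3 (adjusted p = 0.105), and without vehicle replicate 1 (adjusted p = 0.0873) or replicate 3 (adjusted p = 0.0776). The remaining 5, PSMA3 to PSMA7, had log2 fold changes from -0.63 for PSMA7 to -0.40 for PSMA6.

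The constitutive β subunits fell as well, with all 7 called lower and log2 fold changes between -1.01 and -0.36. Their summed level was 857 ± 9.47 FPKM in HR-19011 and 1252 ± 11.9 FPKM in vehicle (SD, n = 3). PSMB2, a structural subunit without a cutting site, fell most, to 50.9, 51.7 and 50.7 FPKM in HR-19011, against 106, 101 and 104 FPKM in vehicle. Every treated library held about the same low level, and the log2 fold change was -1.01 (SE 0.0271, limma adjusted p = 2.40e-09). PSMB1, the most abundant member, moved least of the β genes, at 228, 235 and 221 FPKM in HR-19011, against 293, 291 and 296 FPKM in vehicle.

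The 3 constitutive β subunits that cut were each lower. PSMB5, which carries the chymotrypsin-like site targeted by clinical proteasome inhibitors, stood at 81.7, 86.0 and 83.2 FPKM in HR-19011, against 133, 137 and 137 FPKM in vehicle. PSMB6, with the caspase-like site, stood at 64.0, 65.8 and 63.5 FPKM in HR-19011, against 99.7, 103 and 106 FPKM in vehicle. PSMB7, with the trypsin-like site, stood at 133, 132 and 136 FPKM in HR-19011, against 190, 187 and 188 FPKM in vehicle. No treated library reached the vehicle range for any of them, and the log2 fold changes were -0.69, -0.67 and -0.49 (SE 0.0286, 0.0302 and 0.0240; limma adjusted p at most 9.05e-08).

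The immunoproteasome replaces those subunits with PSMB8, PSMB9 and PSMB10, chiefly under interferon-γ. PSMB10 was the one member of this set above the filter. It stood at 23.1, 20.4 and 20.7 FPKM in HR-19011, against 22.7, 22.7 and 21.5 FPKM in vehicle. These values overlap, and PSMB10 did not pass the test (log2 fold change -0.059, SE 0.0503, limma adjusted p = 0.296), although it was called lower after TMM scaling (-0.30, adjusted p = 0.000498) and without HR-19011 replicate 1 (-0.11, adjusted p = 0.0335).

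PSMB8 was barely listed, at 0.535, 0.472 and 0.504 FPKM in HR-19011, against 0.330, 0.143 and 0.175 FPKM in vehicle. PSMB9 was as low, at 0.300, 0.182 and 0.549 FPKM in HR-19011, against 0.306, 0.234 and 0.374 FPKM in vehicle. The PSMB8 groups do not overlap and the PSMB9 groups do. Fitted without the filter on low values, where 52.0% of 26374 genes were called, PSMB8 had a log2 fold change of 0.31 (limma adjusted p = 0.00749) and PSMB9 one of 0.035 (limma adjusted p = 0.815). Both lie on chromosome 6 (GRCh38), PSMB8 from 32840717 to 32844679 and PSMB9 from 32854192 to 32859851. PSMB11, the thymus-specific β subunit, was at 0 in every vehicle library and reached at most 0.0334 FPKM in HR-19011.

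As a share of the summed FPKM of the 6 paired catalytic genes, the immunoproteasome genes made up 7.93%, 6.91% and 7.13% in HR-19011 libraries, against 5.23%, 5.13% and 4.88% in vehicle libraries. The treated shares all lie above the vehicle ones, by 2.25 percentage points on average. The summed level of the immunoproteasome genes was little moved, at 22.3 FPKM in HR-19011 and 22.8 FPKM in vehicle. PSMB5, PSMB6 and PSMB7 were each lower. PSMB10 made up most of the immunoproteasome sum. Its share of PSMB10 plus PSMB7 was 13.8% ± 0.911 in HR-19011 and 10.6% ± 0.275 in vehicle (SD, n = 3), with PSMB10 itself little moved and PSMB7 lower.

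**Figure D2:**
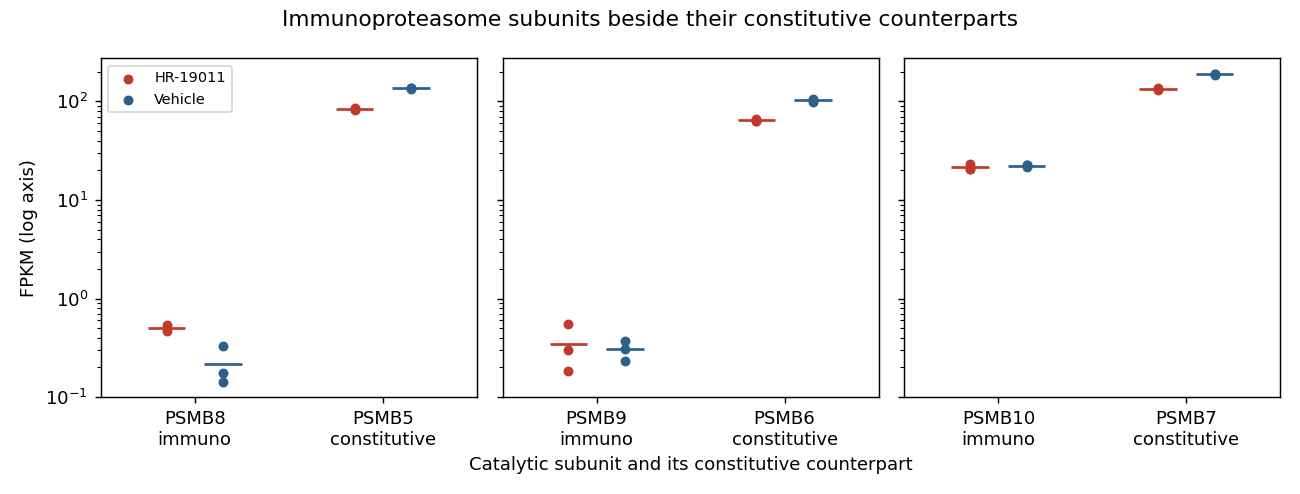
FPKM on a log axis for each immunoproteasome subunit and the constitutive subunit it replaces, with HR-19011 libraries (red) left of vehicle libraries (blue); points are the 3 libraries and lines their means. The constitutive subunits are lower in HR-19011, PSMB10 overlaps between the groups, and PSMB8 and PSMB9 stay below 1 FPKM.

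The cap fell alongside the core. Its 6 ATPases, PSMC1 to PSMC6, form the ring that unfolds substrates, and all 6 were called lower, with a summed level of 324 ± 8.92 FPKM in HR-19011 and 458 ± 2.76 FPKM in vehicle (SD, n = 3). PSMC6 fell most, to 22.1, 24.9 and 21.1 FPKM in HR-19011, against 38.5, 39.8 and 36.2 FPKM in vehicle, a log2 fold change of -0.73 (SE 0.0599, limma adjusted p = 3.20e-06). PSMC2 fell least, to 59.2, 60.9 and 57.9 FPKM in HR-19011, against 78.3, 74.3 and 78.1 FPKM in vehicle. For both, every treated library lay below every vehicle library. The log2 fold change of PSMC2 was -0.37, and the other 4 ATPase genes lay between these.

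The 13 other cap subunits were all called lower too, with a summed level of 924 ± 22.3 FPKM in HR-19011 and 1339 ± 5.88 FPKM in vehicle (SD, n = 3). PSMD1, a large scaffold of the cap, fell most, to 29.8, 31.2 and 29.5 FPKM in HR-19011, against 65.1, 62.1 and 66.3 FPKM in vehicle. Every treated library was far below every vehicle library, 2.14-fold in the mean, with a log2 fold change of -1.07 (SE 0.0360, limma adjusted p = 8.44e-09). PSMD11, PSMD3, PSMD12 and PSMD6, further structural subunits, followed at -0.93, -0.89, -0.86 and -0.83. PSMD2, PSMD13, PSMD8 and PSMD7 had log2 fold changes from -0.64 for PSMD2 to -0.30 for PSMD7.

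Subunits that handle ubiquitin are part of this set. PSMD14, the deubiquitinase of the cap, had a log2 fold change of -0.63, the ubiquitin receptor ADRM1 one of -0.50 and the ubiquitin receptor PSMD4 one of -0.16. The call of PSMD4 was lost as TPM (-0.041, adjusted p = 0.186) and after quantile normalization (-0.019, adjusted p = 0.530). SEM1, a small acidic subunit, moved least: it stood at 101, 103 and 97.5 FPKM in HR-19011, against 107, 105 and 109 FPKM in vehicle. Its groups lay close together, and its log2 fold change of -0.091 (SE 0.0289, limma adjusted p = 0.0161) turned positive as TPM and was called higher after quantile normalization (0.085, adjusted p = 0.0143). Without HR-19011 replicate 3 or vehicle replicate 3, the adjusted p of SEM1 was 0.0630 and 0.0631.

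Summed FPKM of the 14 core subunits divided by that of the 19 cap subunits was 1.17, 1.14 and 1.17 in HR-19011 libraries, against 1.15, 1.14 and 1.15 in vehicle libraries. The ranges overlap, with a mean difference of 0.0118. Among the 33 subunits, log2 fold change and vehicle level had a Spearman rho of 0.32, a description across genes of the same libraries.

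**Figure D3:**
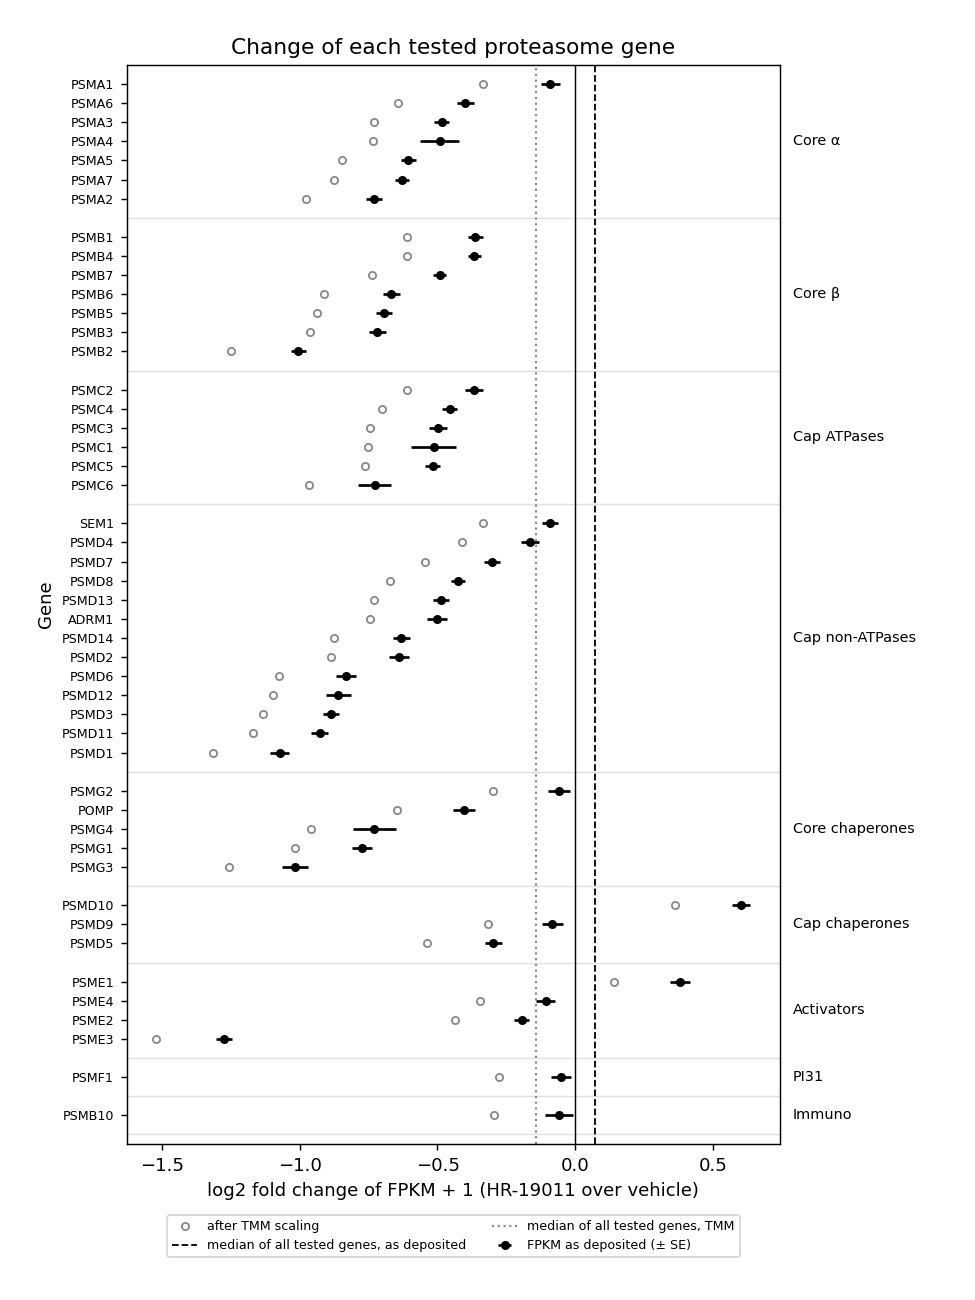
Log2 fold change of FPKM + 1, HR-19011 over vehicle, for each tested proteasome gene by role: filled points are FPKM as deposited with their SE, open points the same after TMM scaling. The dashed and dotted lines mark the median of all tested genes on each scale, 0.07 and -0.14. PSMD10 and PSME1 lie right of 0 on both scales, and PSME3 lies farthest left.

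Since core and cap genes moved together, their promoters were searched. NRF1 (gene NFE2L1) is known to bind antioxidant response elements in proteasome promoters when proteasome activity is short. The core of that element, searched as TGACNNNGC on both strands in the 250 bases before the RefSeq start (GRCh38.p14), was present for 12 of the 47 members whose promoters were in the table (25.5%), beside 12.5% of 8992 tested genes and 11.0% of all 27305 promoters. A CCAAT box, spelled CCAAT, was present for 21 of 47 (44.7%), beside 36.2% of tested genes. The core of the element bound by ATF4 with C/EBP proteins, TGATGNAA, was found in 0 of 47, beside 1.33% of tested genes. With so rare a motif, 47 promoters are too few to tell this count from the share of genes in general. Overlap between matches of different motifs was allowed, and a match is a description of letters, not a bound site.

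Shown are the element cores of the 4 members with the largest falls among those that hold one, followed by PSME1, which rose, with the match in capitals. They read 5′ to 3′ on the gene's strand, from chr17:39980750-39980798 (plus) for PSMD3, chr17:67366714-67366762 (minus) for PSMD12, chr21:39183606-39183654 (minus) for PSMG1, chr17:38752617-38752665 (plus) for PSMB3 and chr14:24136088-24136136 (plus) for PSME1.
PSMD3: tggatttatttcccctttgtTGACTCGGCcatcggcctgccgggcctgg
PSMD12: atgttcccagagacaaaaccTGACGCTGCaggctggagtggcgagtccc
PSMG1: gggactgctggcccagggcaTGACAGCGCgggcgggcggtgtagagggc
PSMB3: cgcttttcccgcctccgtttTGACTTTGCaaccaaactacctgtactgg
PSME1: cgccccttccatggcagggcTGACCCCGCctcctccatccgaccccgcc
The matches begin 37, 165, 183, 104 and 86 bases before the start, in that order. Members with a match had log2 fold changes from -0.89 for PSMD3 to 0.38 for PSME1. The members without a match included PSME3, PSMD1 and PSMB2, which fell at least 2-fold, and PSMD10, which rose.

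The core is built with dedicated chaperones. POMP, the maturation factor consumed by each new core, stood at 44.2, 40.5 and 42.0 FPKM in HR-19011, against 58.5, 55.5 and 54.5 FPKM in vehicle (log2 fold change -0.40, SE 0.0405, limma adjusted p = 1.29e-05). PSMG1 and PSMG2 encode partners of a dimer that assembles the α ring. PSMG1 was called and PSMG2 was not, a difference between the genes that was not itself tested. PSMG1 fell to 52.1, 51.9 and 52.1 FPKM in HR-19011, against 93.5, 85.4 and 90.1 FPKM in vehicle, a log2 fold change of -0.77 (SE 0.0351, limma adjusted p = 5.51e-08).

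PSMG2 stood at 39.3, 37.6 and 35.7 FPKM in HR-19011, against 39.9, 39.4 and 38.0 FPKM in vehicle. Its groups overlap, and it did not pass the test (log2 fold change -0.059, SE 0.0403, limma adjusted p = 0.198), though it was called lower after TMM scaling (-0.30, adjusted p = 0.000116). PSMG3 and PSMG4, the second chaperone pair of the α ring, both fell. PSMG3 stood at 17.4, 18.9 and 18.9 FPKM in HR-19011, against 36.2, 38.3 and 40.3 FPKM in vehicle, and PSMG4 at 10.6, 12.2 and 9.66 FPKM in HR-19011, against 17.3, 19.3 and 19.1 FPKM in vehicle. Their log2 fold changes were -1.02 (SE 0.0482) and -0.73 (SE 0.0775), with limma adjusted p = 7.35e-08 and 1.94e-05.

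The chaperones of the cap went separate ways. PSMD10, or gankyrin, which holds an ATPase of the cap during assembly and is also known as an oncoprotein, rose to 31.9, 31.5 and 31.4 FPKM in HR-19011, against 21.3, 20.1 and 20.2 FPKM in vehicle. The groups were far apart, 1.54-fold, with a log2 fold change of 0.60 (SE 0.0337, limma adjusted p = 2.33e-07), and the rise remained after TMM scaling (0.36, adjusted p = 7.08e-06). The gene lies on chromosome X from 108084207 to 108091542. PSMD5 fell to 32.9, 31.9 and 33.3 FPKM in HR-19011, against 40.7, 39.5 and 40.9 FPKM in vehicle (log2 fold change -0.30, SE 0.0305, limma adjusted p = 1.51e-05).

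PSMD9 stood at 16.5, 16.8 and 16.1 FPKM in HR-19011, against 17.0, 18.3 and 17.3 FPKM in vehicle. These groups do not overlap, yet the gap is narrow and the test was not passed (log2 fold change -0.084, SE 0.0379, limma adjusted p = 0.0652), except after TMM scaling (-0.32, adjusted p = 6.64e-05), after quantile normalization (-0.090, adjusted p = 0.0450) and without vehicle replicate 1 (-0.10, adjusted p = 0.0417). As TPM its log2 fold change was 0.034 (adjusted p = 0.444).

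Alternative activators open the core without the cap. PSME3 encodes PA28γ, a nuclear activator, and fell to 42.3, 43.6 and 44.3 FPKM in HR-19011, against 106, 104 and 109 FPKM in vehicle. No treated library came near the vehicle range, and the log2 fold change of -1.28 (SE 0.0295, limma adjusted p = 1.00e-09) was lower than that of all but 3.29% of tested genes. The gene lies on chromosome 17 from 42833397 to 42843760.

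PSME1 and PSME2 encode the α and β subunits of PA28, a ring induced by interferon-γ, and neighbour each other on chromosome 14, from 24136194 to 24138962 and from 24143365 to 24146610. They moved in opposite directions. PSME1 rose to 32.6, 31.4 and 32.4 FPKM in HR-19011, against 23.5, 25.1 and 24.9 FPKM in vehicle, a log2 fold change of 0.38 (SE 0.0358, limma adjusted p = 8.39e-06) that was 0.14 after TMM scaling (adjusted p = 0.00570). PSME2 fell to 45.1, 46.4 and 45.0 FPKM in HR-19011, against 52.2, 52.9 and 51.5 FPKM in vehicle, a log2 fold change of -0.19 (SE 0.0276, limma adjusted p = 0.000140) that was no longer called after quantile normalization (-0.044, adjusted p = 0.150).

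PSME4 encodes PA200, an activator associated with histone degradation. It stood at 20.9, 21.6 and 20.8 FPKM in HR-19011, against 23.4, 22.0 and 23.0 FPKM in vehicle, close together but without overlap. Its log2 fold change of -0.11 (SE 0.0353, limma adjusted p = 0.0186) turned to 0.011 as TPM and was not called after quantile normalization (-0.038, adjusted p = 0.296). The call was lost without HR-19011 replicate 1 (adjusted p = 0.0602) or replicate 3 (adjusted p = 0.0607), and without vehicle replicate 1 (adjusted p = 0.0546) or replicate 3 (adjusted p = 0.0557).

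PSMF1, the inhibitor PI31, stood at 10.3, 10.5 and 10.3 FPKM in HR-19011, against 10.5, 11.0 and 10.8 FPKM in vehicle. Its groups almost meet, and it did not pass the test (log2 fold change -0.051, SE 0.0360, limma adjusted p = 0.212). After TMM scaling it was called lower (-0.28, adjusted p = 9.11e-05), as it was after quantile normalization (-0.16, adjusted p = 0.00239). The genes matched by symbol alone were not called either: PSME3IP1, which encodes a partner of PA28γ, had a log2 fold change of -0.054 (limma adjusted p = 0.390), and PSMC3IP, a cofactor of meiotic recombination, one of -0.072 (limma adjusted p = 0.0837). Both were called lower after TMM scaling (-0.29 and -0.30). PSMC3IP was also called lower after quantile normalization (-0.19, adjusted p = 0.000686) and without the filter on low values (adjusted p = 0.0305).

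For 18 of the 53 members, another gene with a mean of at least 1 FPKM overlaps on the opposite strand in GENCODE annotation (GRCh38). Among them are PSME3 with BECN1, PSMA2 with MRPL32, PSMD5 with CUTALP, PSMG4 with TUBB2B and PSMB9 with TAP1. TAP1 averaged 1.99 FPKM over the 6 libraries, above every value of PSMB9. TUBB2B averaged 17.7 FPKM, within the range of the PSMG4 values. The libraries were stranded, but the sources used here do not give the strand setting of the counting. The levels of these members may therefore hold reads of the partner. PSMC1 has processed copies, and its reads could be split with them.

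Around the proteasome, the gene of its main transcriptional regulator was higher. NFE2L1 encodes NRF1, a factor anchored in the endoplasmic reticulum, degraded there through SEL1L and SYVN1, pulled out by VCP, and activated by NGLY1 and the protease DDI2. NFE2L1 rose to 87.5, 91.5 and 87.5 FPKM in HR-19011, against 36.3, 37.9 and 37.5 FPKM in vehicle. That is 2.38-fold, without overlap, and a log2 fold change of 1.23 (SE 0.0309, limma adjusted p = 1.58e-09). Of the 10 genes listed around NRF1, 6 were called higher and 2 lower, beside 46.4% higher and 38.0% lower among all tested genes. The count itself is thus not far from that background. The list also holds genes outside the steps named above, such as AKIRIN2, which was called higher. The median change of the 10 genes was 0.44 on the log2 scale, beside 0.07 for all tested genes. After TMM scaling, 6 were higher and 3 lower, with a median of 0.20, beside 34.6% and 50.5% of all tested genes and a median of -0.14. SEL1L rose to 30.0 ± 0.507 FPKM in HR-19011, against 5.14 ± 0.301 FPKM in vehicle, and SYVN1 to 59.8 ± 0.935 FPKM, against 18.3 ± 0.378 FPKM (SD, n = 3). DDI2 fell to 11.0 ± 0.0930 FPKM in HR-19011, against 16.2 ± 0.402 FPKM in vehicle (log2 fold change -0.52, SE 0.0347). VCP was also called lower (log2 fold change -0.12, and 0.0015 as TPM), and NGLY1 was not called (-0.084).

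Factors that bind the proteasome, a list of 15 ubiquitin receptors, deubiquitinases, ligases and adaptors, had a median log2 fold change of -0.25. Of these, 9 were called lower and 3 higher, beside 38.0% and 46.4% of all tested genes. After TMM scaling, 12 were lower and 2 higher, beside 50.5% and 34.6%. PAAF1 was called higher as deposited (limma adjusted p = 0.0411). It was not called after TMM scaling (adjusted p = 0.369) or without the filter on low values (adjusted p = 0.142). UBQLN4, a shuttle receptor, stood at 24.3 ± 0.596 FPKM in HR-19011 and 40.4 ± 0.902 FPKM in vehicle (SD, n = 3; log2 fold change -0.71, SE 0.0325). RAD23B, another shuttle receptor, stood at 39.9 ± 0.628 FPKM in HR-19011 and 58.3 ± 1.01 FPKM in vehicle (log2 fold change -0.54, SE 0.0282). ZFAND2A, an arsenite-inducible proteasome adaptor, rose to 13.6 ± 0.987 FPKM in HR-19011, against 8.65 ± 0.392 FPKM in vehicle (log2 fold change 0.60, SE 0.0567).

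Of 5 listed genes for ubiquitin and its E1 enzymes, 3 were called higher and 2 lower, close to the 46.4% and 38.0% of all tested genes. After TMM scaling, 1 was higher and 2 lower, beside 34.6% and 50.5%. UBB, which encodes a chain of ubiquitin units, stood at 651, 668 and 650.3 FPKM in HR-19011, against 507, 509 and 525 FPKM in vehicle, without overlap (log2 fold change 0.35, SE 0.0237, limma adjusted p = 7.66e-07). UBA1, the main E1 enzyme that activates ubiquitin, stood at 94.5 ± 2.42 FPKM in HR-19011 and 78.3 ± 2.23 FPKM in vehicle (SD, n = 3; log2 fold change 0.27, SE 0.0316), and TMM scaling ended this call (0.024, adjusted p = 0.536). RPS27A, a fusion of ubiquitin with a ribosomal protein, stood at 664 ± 22.9 FPKM in HR-19011 and 743 ± 19.3 FPKM in vehicle (log2 fold change -0.16, SE 0.0311), a call lost as TPM (-0.040, adjusted p = 0.281).

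Class I antigen processing, the pathway that the immunoproteasome and PA28 feed with peptides, was represented by 14 listed genes, of which 9 passed the filter. Of the 9, 8 were called higher and 1 lower, beside 46.4% and 38.0% of all tested genes, and their median log2 fold change was 0.96. The counts were also 8 and 1 after TMM scaling, beside 34.6% and 50.5%. ERAP1, a peptide-trimming protease of the endoplasmic reticulum, stood at 26.6 ± 0.656 FPKM in HR-19011 and 6.40 ± 0.00443 FPKM in vehicle (SD, n = 3), 4.16-fold higher. HLA-E stood at 39.6 ± 0.663 FPKM in HR-19011 and 11.1 ± 0.267 FPKM in vehicle (log2 fold change 1.75, SE 0.0329). TAP2, a subunit of the peptide transporter, fell to 6.76 ± 0.236 FPKM in HR-19011, against 10.7 ± 0.0900 FPKM in vehicle (log2 fold change -0.59, SE 0.0396).

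**Figure D4:**
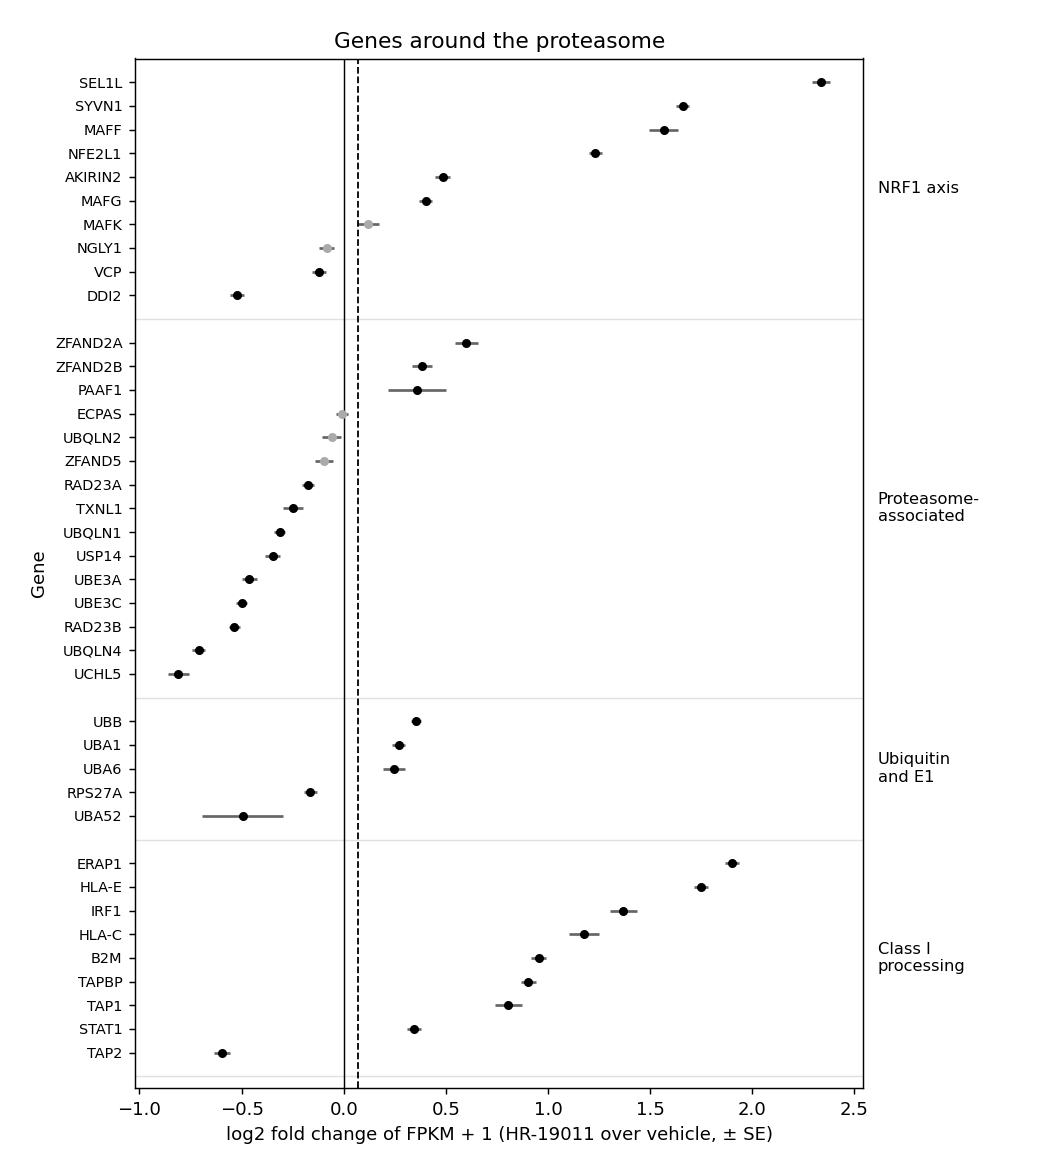
Log2 fold change of FPKM + 1, HR-19011 over vehicle, with SE, for the tested genes of 4 lists around the proteasome; black points were called and grey points were not, and the dashed line is the median of all tested genes, 0.07. SEL1L, ERAP1, HLA-E and NFE2L1 lie well to the right, while most proteasome-binding factors lie left of 0.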

How the data were processed

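The deposited values are FPKM per gene for 46427 genes in 6 libraries, scaled by the authors to length and mapped fragments, per the file headers. Per the submitters' processing notes, with no roles given, the build was GRCh38 and the tools included StringTie 2.1.3b, DESeq2 1.24.0 and HISAT2 2.1.0. Whole reads were not recovered: at the best of many steps, 32.0% to 38.1% of low values lay within 0.1 of a whole multiple, so depth is unknown and no count model was used.

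The 11856 genes averaging 1 FPKM or more were tested on log2(FPKM + 1), which understates changes of low genes, with limma 3.58.1 in R 4.3.3: group alone in the model, a variance trend over the mean level, two-sided, Benjamini-Hochberg adjustment over all tested genes, threshold 0.05. Folds without log2 are ratios of mean FPKM. The test was checked on simulated data. Members, gene lists and tests were chosen with earlier results of these data known. All members are accounted for; values per library are given for the highest and lowest change in each role, the catalytic subunits, and the chaperones, activators and inhibitor. The other lists are given by counts, with levels for NFE2L1 and up to 3 called genes by p, at least 1 per direction. Shares and sums over members have no p. Positions and promoters are from RefSeq (GRCh38.p14), matched by gene identifier, for 53 and 47 members. The promoter table was read in the gene's direction: for 40 of 47 members, bases after the start were found in a GENCODE transcript. Replicate numbers were not used to pair the libraries in the main fit. A result on another gene is not reported here.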

Additional observations from a re-analysis of the deposited data

How the results depend on the processing

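Under the alternatives tried (a pseudocount of 0.1 or 5, no low-value filter or one at 5 FPKM, TMM, TPM, quantile normalization, no variance trend, only protein-coding genes, a 0.01 threshold, and each library left out), members called lower ranged from 37 to 47 and members called higher from 2 to 3, within 1.5 times the counts as reported. The members' median of -0.49 moved to -0.74 after TMM scaling, -0.37 as TPM and -0.33 after quantile normalization. Leaving out each library in turn gave 38 to 41 lower and 2 to 2 higher members, medians from -0.50 to -0.47, and a gain of the immunoproteasome share from 1.94 to 2.45 percentage points. As TPM, log2 fold changes turned positive for PSMA1 (0.033), PSMB10 (0.061), SEM1 (0.032), PSMG2 (0.063), PSMD9 (0.034), PSME4 (0.011), PSMF1 (0.065), PSME3IP1 (0.067) and PSMC3IP (0.043). After quantile normalization they turned positive for PSMA1 (0.054), PSMB10 (0.0067), SEM1 (0.085), PSMG2 (0.073) and PSME3IP1 (0.047). The cause was not tested. Same-numbered libraries of the 2 groups did not deviate together (r between -0.108 and -0.00448). With deviations taken from the means of 3 libraries, this cannot show that they shared no preparation. With the replicate number as a block, 41 members were lower and 2 higher, the median stayed at -0.49, and 9880 genes were called in place of 10009. Small changes of low genes such as PSMB8 and PSMB9 are limited by an unknown depth.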

Other observations

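Rows with proteasome symbols that are not protein-coding held 4 long noncoding RNAs named as antisense and 42 pseudogenes. The noncoding PSMA3-AS1, which overlaps PSMA3 on the other strand, stood at 8.47 ± 0.485 FPKM in HR-19011 and 6.43 ± 0.518 FPKM in vehicle (SD, n = 3). It rose by 0.35 on the log2 scale (SE 0.0612, limma adjusted p = 0.000557), opposite in sign to PSMA3. PSMG3-AS1, whose gene adjoins PSMG3, stood at 1.43 ± 0.146 FPKM in HR-19011 and 0.333 ± 0.0539 FPKM in vehicle and lay below the filter on its mean. Of the pseudogenes, 22 were listed at 0 in all 6 libraries and 1, PSMC1P1, averaged at least 1 FPKM. PSMC1P1 stood at 2.56 ± 0.179 FPKM in HR-19011 and 3.67 ± 0.137 FPKM in vehicle (log2 fold change -0.40, SE 0.0555, limma adjusted p = 0.000131), beside 17.9 ± 1.09 and 26.1 ± 3.32 FPKM for PSMC1. Reads shared between PSMC1 and this copy could have been divided either way.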
